A study of Mus musculus with 9 samples.

Results

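The mRNA signals of 10 triglyceride synthesis genes were described in mouse liver: the glycerol 3-phosphate acyltransferase gene *Gpam*, the acylglycerol phosphate acyltransferase genes *Agpat2* and *Agpat3*, the lipin genes *Lpin1*, *Lpin2* and *Lpin3*, the monoacylglycerol acyltransferase genes *Mogat1* and *Mogat2*, and the diacylglycerol acyltransferase genes *Dgat1* and *Dgat2*. The genes were chosen by name, with earlier results of these data known. Each had 1 probe set, a group of probes read as 1 value, that the platform annotation gives to that symbol alone. They are 10 of the 28815 probe sets on the Affymetrix Mouse Gene 1.0 ST arrays, of which 21780 carried 1 gene symbol. The samples were livers of 9 female mice of C57BL/6J background, aged 15 to 16 months, with 1 mouse per array. The study names a standard chow for its mice and says that the restricted mice were switched to lower daily amounts of a calorie restriction diet. The 3 groups of 3 mice were wild-type mice under short-term calorie restriction (WTCR), *Dgat1*-/- mice that ate ad libitum (Dgat1-/-AL) and wild-type littermates that ate ad libitum (WTAL). The study asked whether calorie restriction and *Dgat1* deficiency act on the same pathways in liver, and both comparisons use the same 3 WTAL arrays. The hour of collection, the time since the last meal, the part of *Dgat1* that the mutant allele keeps and the position of the *Dgat1* probes are not given in the sources used here.

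Triglyceride is built on glycerol 3-phosphate. GPAT enzymes add the first fatty acid, AGPAT enzymes add the next to make phosphatidate, lipins remove the phosphate to give diacylglycerol, and DGAT enzymes add the last fatty acid. MGAT enzymes reach diacylglycerol by another route, from monoacylglycerol, which is best known from the intestine. In liver the product is stored in lipid droplets or exported in very low density lipoprotein, and lipin 1 also enters the nucleus, where it acts with PPARα and PGC-1α on genes of fatty acid oxidation.

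Of the 10 genes, 7 had a promoter entry in RefSeq (GRCm38.p6), with 11 start sites in all, and *Dgat1*, *Dgat2* and *Mogat2* had none. The 250 bases before each start were searched on both strands for the E-box CACGTG bound by clock and MYC family factors, the D-box TTATGTAA bound by PAR bZIP factors, and the sterol regulatory element TCACNCCAC. Of the 32851 promoters of the mouse table, 6.02% held the E-box, 0.819% the D-box and 1.05% the sterol regulatory element in a window of this length. A match was found in 1 of the 11 windows, an E-box whose first base lies at position -9 from the first start site of *Lpin2*, and with a single match no motif overlapped another. The window of the first start site is shown for the 3 genes before the DGAT step whose mRNA was higher in WTCR livers, with the E-box in capitals, for *Lpin1* (chr12:16610967-16611216, minus strand), *Lpin2* (chr17:71183282-71183531, plus strand) and *Agpat3* (chr10:78351701-78351950, minus strand).
Lpin1: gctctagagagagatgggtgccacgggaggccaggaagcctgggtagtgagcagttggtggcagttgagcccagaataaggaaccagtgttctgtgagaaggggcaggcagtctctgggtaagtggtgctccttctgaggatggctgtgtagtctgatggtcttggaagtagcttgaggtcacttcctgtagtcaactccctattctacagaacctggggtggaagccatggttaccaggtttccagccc
Lpin2: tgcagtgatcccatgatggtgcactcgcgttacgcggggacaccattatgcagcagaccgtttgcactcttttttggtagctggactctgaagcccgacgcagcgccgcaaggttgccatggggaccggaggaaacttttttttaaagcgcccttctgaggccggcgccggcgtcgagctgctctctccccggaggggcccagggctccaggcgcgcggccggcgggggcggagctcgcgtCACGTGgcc
Agpat3: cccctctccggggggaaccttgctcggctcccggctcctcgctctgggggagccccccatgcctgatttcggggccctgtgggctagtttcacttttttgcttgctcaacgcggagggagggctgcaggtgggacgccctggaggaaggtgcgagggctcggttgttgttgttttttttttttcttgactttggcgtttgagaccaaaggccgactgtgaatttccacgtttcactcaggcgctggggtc
The windows of the other 2 start sites of *Lpin2*, not printed, and the *Lpin1* and *Agpat3* windows held none of the 3 motifs, which says only that those letters are not in these bases.

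The targeted gene was read first. *Dgat1* encodes the enzyme of the endoplasmic reticulum that joins a fatty acyl group to diacylglycerol. Its log2 signal was 8.90, 8.76 and 8.56 in WTCR livers, 6.14, 5.84 and 5.39 in Dgat1-/-AL livers, and 7.86, 5.67 and 8.05 in WTAL livers (replicates 1, 2 and 3). The array labelled WTAL replicate 2 thus lay inside the range of the knockout arrays and went against its label, while the WTCR arrays stood above all others. Its gap to the mean of the other 2 WTAL arrays was -2.28, and only 2 of the 28815 probe sets on that array had a gap as large, *Dgat1* and *Sult1e1*, an estrogen sulfotransferase gene named here after its value was seen. On the other arrays 1 to 15 probe sets reached that size. For the other 9 genes of triglyceride synthesis the same array was unremarkable, with gaps of -0.29 to 0.23.

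**Figure D1:**
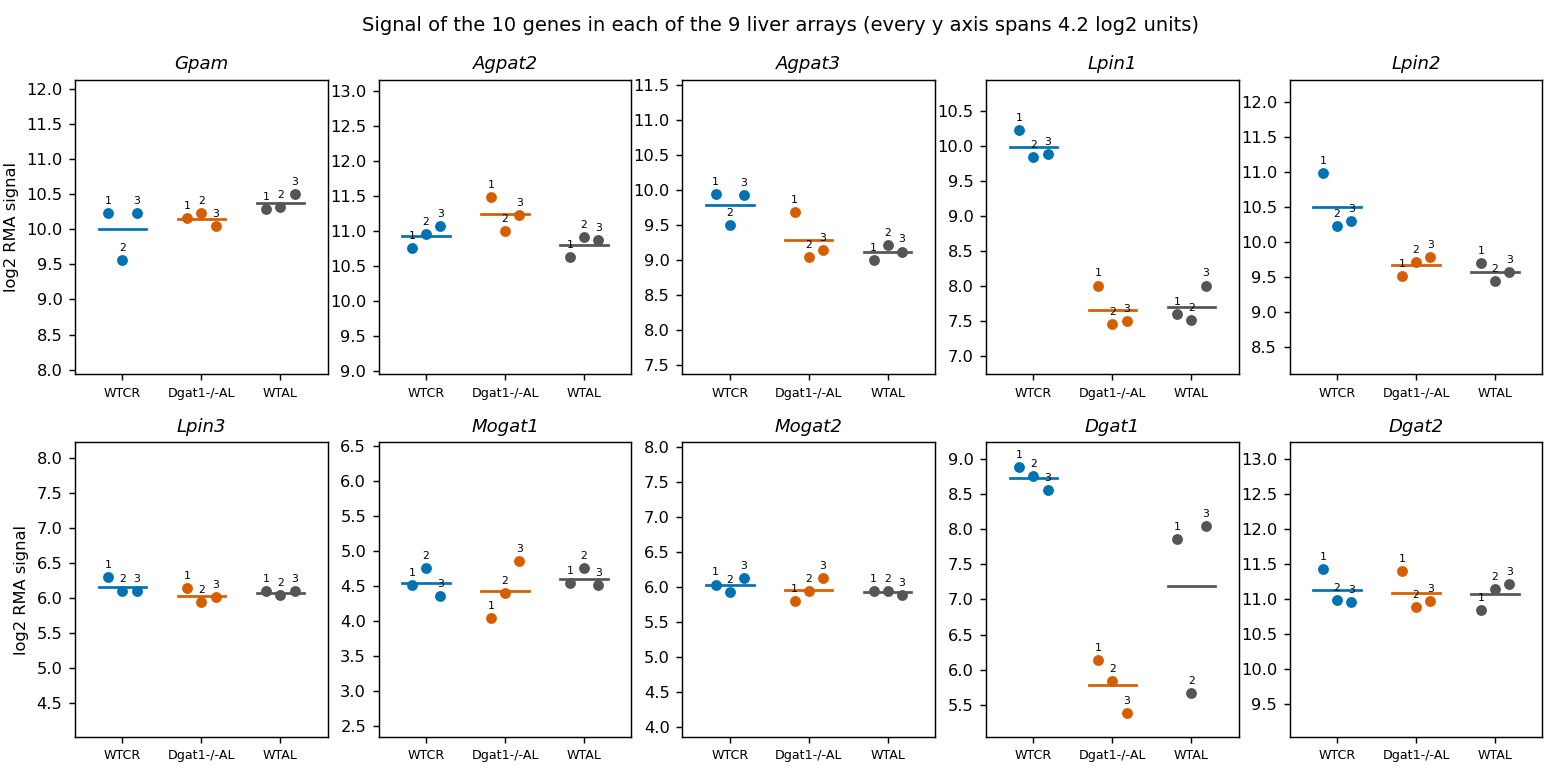
Log2 RMA signal (y axis, the same span in every panel) of the 10 genes for each array, with the groups along the x axis, replicate numbers above the points and a line at each group mean. *Lpin1* in WTCR stands at 9.84 to 10.22, above every ad libitum array, and *Dgat1* in the array labelled WTAL replicate 2 lies at 5.67.

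Calls were made by the rule of the study, which asks for a change of more than 1.3-fold with a limma p under 0.05 before adjustment, and the p adjusted by Benjamini-Hochberg over all probe sets is given beside each. For *Dgat1* the WTCR mean exceeded the WTAL mean 2.92-fold (1.55 ± 0.55 as log2 fold change and SE, with n = 3 mice in each group, limma adjusted p = 0.21). The Dgat1-/-AL mean was lower than the WTAL mean, 2.65-fold (-1.41 ± 0.55, limma adjusted p = 0.97). In the direct comparison WTCR exceeded Dgat1-/-AL 7.73-fold (2.95 ± 0.55, limma adjusted p = 0.029, and 2.75 to 3.13 with any 1 array left out). The SD of the WTAL group was 1.32, against 0.17 in WTCR and 0.38 in Dgat1-/-AL. The mean *Dgat1* signal in Dgat1-/-AL livers was 5.79, and 1.84% of 1035 olfactory receptor probe sets, genes of smell that liver is not expected to use, had a mean at or above it. Such a low signal may hold background, in which case the folds against Dgat1-/-AL would be lower bounds, and this was not tested. Without the array labelled WTAL replicate 2 the log2 fold changes became 0.79 in WTCR and -2.17 in Dgat1-/-AL, and both calls held.

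Both calls against WTAL also depended on single arrays. Leaving out WTCR replicate 1 (1.47) or 2 (1.54) ended the call in WTCR. For Dgat1-/-AL the call was lost on leaving out replicate 2 (-1.43) or 3 (-1.21) of that group or replicate 1 (-1.07) or 3 (-0.98) of WTAL, and when only the 2 groups compared were fitted.

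The 10 measured genes on each side of *Dgat1* on chromosome 15, 21 probe sets in all, were read in the same arrays. In the array labelled WTAL replicate 2 their gaps to the other 2 WTAL arrays were -0.19 to 0.31, so the low *Dgat1* signal there was not shared by its neighbours. In Dgat1-/-AL livers none of the 21 was called against WTAL, with log2 fold changes of -0.14 to 0.32, beside 1.23% of all probe sets called in that comparison. In WTCR livers *Maf1*, a repressor of RNA polymerase III (0.73 ± 0.10), *Cyc1*, which encodes cytochrome c1 (0.62 ± 0.07), and *Hgh1* (0.49 ± 0.10) were higher than in WTAL livers, and *Slc39a4*, a zinc importer, was lower (-1.29 ± 0.25), all with limma adjusted p of 0.0085 to 0.033. These are 4 of 21 probe sets, beside 8.06% of all probe sets called in WTCR against WTAL.

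**Figure D2:**
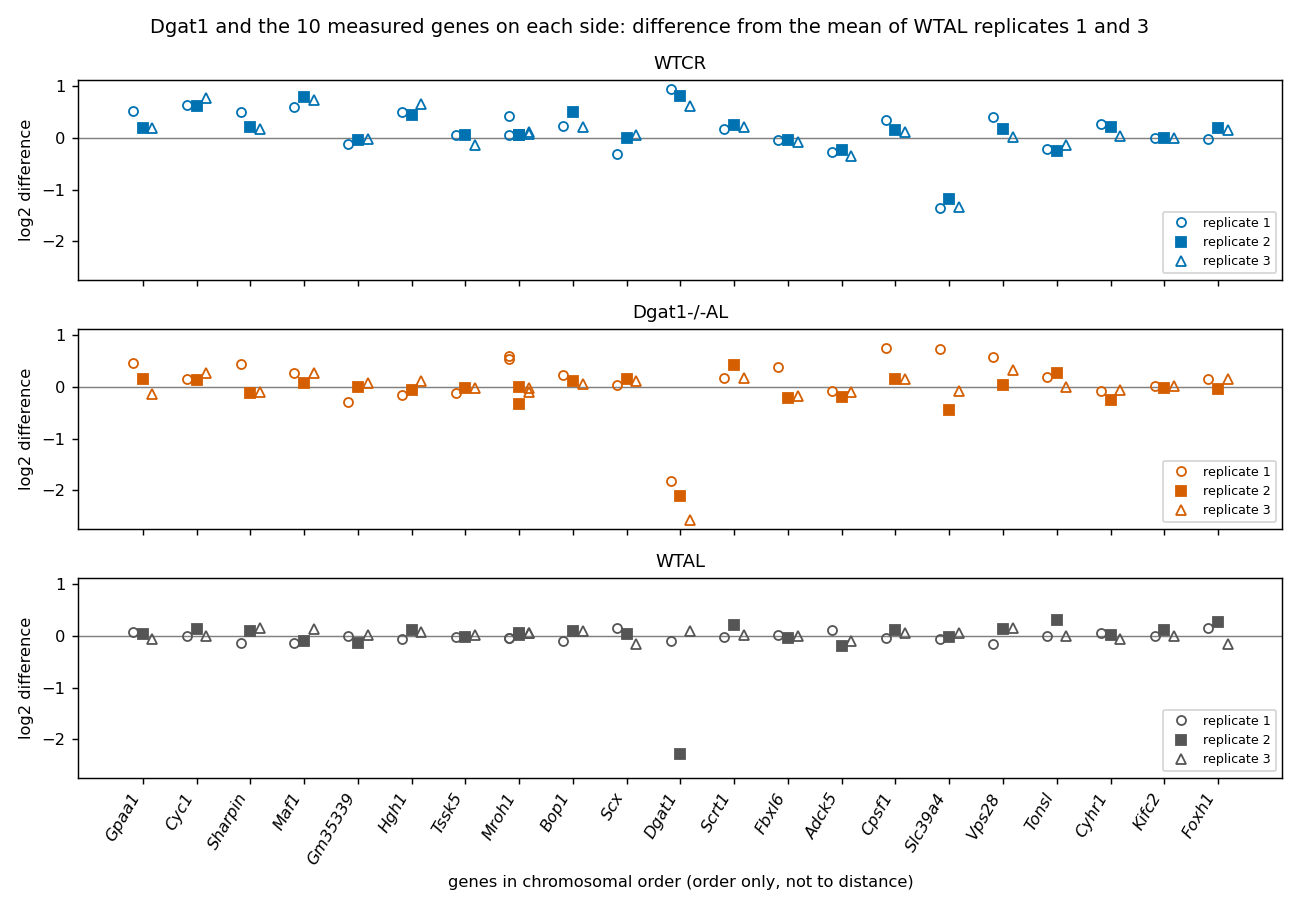
Log2 signal minus the mean of WTAL replicates 1 and 3 (y axis) for *Dgat1* and the 10 measured genes on each side of it, in chromosomal order (x axis), with 1 panel per group and 1 symbol per replicate. The array labelled WTAL replicate 2 (filled square, lowest panel) is low for *Dgat1* alone. The 3 Dgat1-/-AL arrays (middle panel) are low for *Dgat1* too, but their neighbour probe sets vary more. Gaps of these to the other 2 arrays of the group reach -0.77 in replicate 2 and 0.99 in replicate 1.

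The first acylation showed no call. *Gpam* encodes the mitochondrial GPAT, and its log2 signal was 10.23, 9.57 and 10.23 in WTCR livers, 10.16, 10.23 and 10.04 in Dgat1-/-AL livers, and 10.30, 10.32 and 10.50 in WTAL livers. Every WTCR and every Dgat1-/-AL array was below every WTAL array, but the gaps were small. The log2 fold change against WTAL was -0.36 ± 0.17 in WTCR (95% interval -0.75 to 0.02) and -0.23 ± 0.17 in Dgat1-/-AL (-0.61 to 0.16). The WTCR value rested on replicate 2, without which it was -0.14. Without WTCR replicate 1 or 3 it was -0.47 and passed the rule.

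At the next acylation the 2 AGPAT genes differed in the comparison that called them. *Agpat3* encodes an acyltransferase of the endoplasmic reticulum and Golgi. Its log2 signal was 9.94, 9.50 and 9.92 in WTCR livers, 9.68, 9.05 and 9.14 in Dgat1-/-AL livers, and 9.004, 9.22 and 9.12 in WTAL livers. All WTCR arrays were above all WTAL arrays, while Dgat1-/-AL replicate 1 stood alone above the rest of its group. In WTCR livers *Agpat3* was 1.59-fold above WTAL (0.67 ± 0.18, limma adjusted p = 0.095), and its value in Dgat1-/-AL against WTAL was 0.18 ± 0.18 (95% interval -0.23 to 0.58), or -0.02 without Dgat1-/-AL replicate 1. Compared directly, WTCR was higher than Dgat1-/-AL by 0.50 ± 0.18 (limma adjusted p = 0.21), a call that ended with only those 2 groups fitted, on leaving out replicate 1 (0.42) or 3 (0.43) of WTCR, and on leaving out replicate 2 (0.37) or 3 (0.42) of Dgat1-/-AL.

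*Agpat2*, the isoform whose loss causes lipodystrophy in mice and humans, was the only one of the 10 genes called higher in Dgat1-/-AL livers. Its log2 signal was 10.75, 10.96 and 11.06 in WTCR livers, 11.48, 10.99 and 11.23 in Dgat1-/-AL livers, and 10.63, 10.91 and 10.87 in WTAL livers. The Dgat1-/-AL arrays were all above the WTAL arrays, replicate 2 by little, and WTCR overlapped both. The log2 fold change was 0.43 ± 0.14 in Dgat1-/-AL (1.35-fold, limma adjusted p = 0.97) and 0.12 ± 0.14 in WTCR (95% interval -0.20 to 0.43). In the direct comparison WTCR minus Dgat1-/-AL was -0.31 ± 0.14 (-0.62 to 0.005), which was not called, but passed the rule without WTCR replicate 3 (-0.38) or Dgat1-/-AL replicate 2 (-0.43). It was smaller, -0.19, without Dgat1-/-AL replicate 1. The Dgat1-/-AL call ended without Dgat1-/-AL replicate 1 (0.31), without WTAL replicate 1 (0.34) and with array weights (0.36).

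The lipins, which convert phosphatidate to diacylglycerol, held the largest change among the 10 genes against WTAL. *Lpin1* had log2 signals of 10.22, 9.84 and 9.88 in WTCR livers, 8.003, 7.45 and 7.50 in Dgat1-/-AL livers, and 7.59, 7.51 and 8.003 in WTAL livers. The WTCR arrays lay well above all 6 ad libitum arrays, whose 2 groups overlapped. In WTCR livers *Lpin1* was 4.85-fold above WTAL (2.28 ± 0.19, limma adjusted p = 0.0019) and 5.02-fold above Dgat1-/-AL (2.33 ± 0.19, limma adjusted p = 0.0020), and leaving out any 1 array kept the first value between 2.15 and 2.43. In Dgat1-/-AL against WTAL it was -0.05 ± 0.19 (95% interval -0.47 to 0.37), with a sign that changed with the arrays left out (-0.23 to 0.10). In bulk liver a change in signal cannot be split between cell number and mRNA per cell.

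*Lpin2*, the lipin known as most abundant in liver, moved the same way by less. Its log2 signal was 10.99, 10.24 and 10.30 in WTCR livers, 9.51, 9.71 and 9.80 in Dgat1-/-AL livers, and 9.71, 9.45 and 9.58 in WTAL livers. Again the 3 WTCR arrays did not overlap with the 6 others, and WTCR replicate 1 stood highest. The log2 fold change in WTCR was 0.93 ± 0.19 against WTAL (1.91-fold, limma adjusted p = 0.037) and 0.83 ± 0.19 against Dgat1-/-AL (1.78-fold, limma adjusted p = 0.054). In Dgat1-/-AL against WTAL it was 0.10 ± 0.19 (95% interval -0.33 to 0.52). *Lpin3* was not called in any comparison and kept within 0.35 over all 9 arrays (5.95 to 6.30), with 0.09 ± 0.08 in WTCR and -0.04 ± 0.08 in Dgat1-/-AL against WTAL.

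The MGAT genes, which supply diacylglycerol from monoacylglycerol, were not called in any comparison, and all 3 groups overlapped. *Mogat1* had log2 signals of 4.36 to 4.76 in WTCR livers, 4.03 to 4.86 in Dgat1-/-AL livers and 4.52 to 4.76 in WTAL livers. For *Mogat2* the ranges were 5.93 to 6.13 in WTCR livers, 5.80 to 6.12 in Dgat1-/-AL livers and 5.89 to 5.94 in WTAL livers. Against WTAL, *Mogat1* gave -0.06 ± 0.19 in WTCR and -0.17 ± 0.19 in Dgat1-/-AL, and *Mogat2* 0.11 ± 0.09 in WTCR and 0.03 ± 0.09 in Dgat1-/-AL. Without Dgat1-/-AL replicate 3 *Mogat1* was called lower in Dgat1-/-AL (-0.39). Low signals have limited meaning, which here concerns *Mogat1* most. Of the 1035 olfactory receptor probe sets, 16.0% had a mean at or above that of *Mogat1*, 1.64% at or above that of *Mogat2* and 1.35% at or above that of *Lpin3*. The 95th percentile of these probe sets was 5.29, below the means of *Mogat2* (5.97) and *Lpin3* (6.10).

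*Dgat2* encodes the other DGAT, which is unrelated in sequence to DGAT1 and which mice need to survive after birth. Its log2 signal was 11.43, 10.99 and 10.96 in WTCR livers, 11.40, 10.88 and 10.98 in Dgat1-/-AL livers, and 10.84, 11.15 and 11.21 in WTAL livers. The 3 groups overlapped throughout. The log2 fold change was 0.06 ± 0.18 in WTCR (95% interval -0.34 to 0.46) and 0.02 ± 0.18 in Dgat1-/-AL (-0.38 to 0.43) against WTAL. Its sign changed with the array left out in all comparisons.

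As a group, 4 of the 10 genes were higher and 0 lower in WTCR than in WTAL livers (*Dgat1*, *Lpin1*, *Lpin2* and *Agpat3*), where 4.25% of all probe sets were called higher and 3.81% lower. Because the 10 genes were chosen with earlier results of these data known, the shares given here describe them and do not test an excess. The median log2 fold change of the 10 was 0.11, against 0.002 over all probe sets, and the median size without sign was 0.24 against 0.093. At a limma adjusted p under 0.05, 2 of the 10 passed, *Lpin1* and *Lpin2*, beside 3.03% of all probe sets. In Dgat1-/-AL livers 1 gene was higher (*Agpat2*) and 1 lower (*Dgat1*, the deleted gene) than in WTAL livers, where 0.465% of all probe sets were called higher and 0.76% lower, and the median of the 10 was -0.01 (median size 0.14, against 0.075 over all probe sets). No probe set of the array passed an adjusted p under 0.05 in limma in that comparison, while 1316 had an unadjusted p under 0.05. Between WTCR and Dgat1-/-AL directly, the same 4 genes as against WTAL were higher in WTCR, beside 4.66% of all probe sets called higher and 3.93% lower. There *Lpin1* and *Dgat1* passed a limma adjusted p under 0.05, beside 3.06% of all probe sets. *Dgat1* is the gene deleted in the Dgat1-/-AL mice, so its part in both counts was set by the design. Over the alternative settings the limma adjusted p of *Lpin1* stayed between 0.00069 and 0.014 against WTAL and between 0.0010 and 0.022 against Dgat1-/-AL. That of *Lpin2* against WTAL ran from 0.019 to 0.13 and that of *Dgat1* against Dgat1-/-AL from 0.0040 to 0.097, so that both passed 0.05 in some settings and missed it in others, including the fit with the replicate number as a block (0.051 for *Dgat1*).

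**Figure D3:**
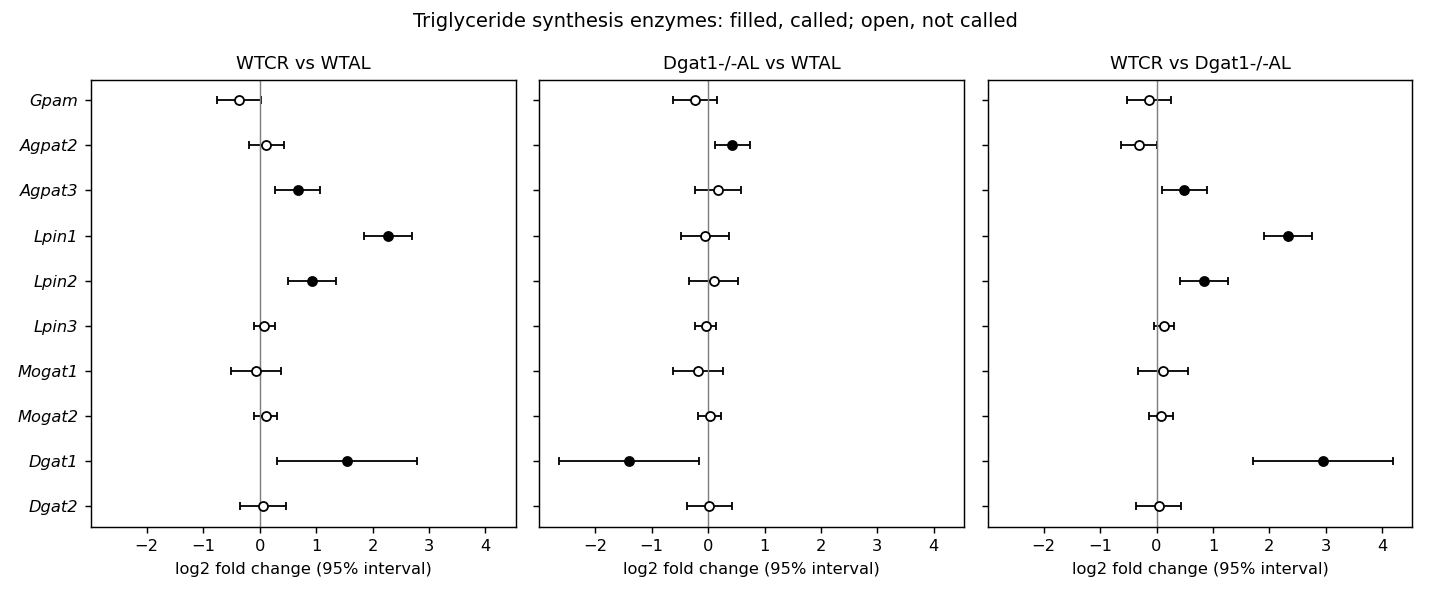
Log2 fold change (x axis) of each of the 10 genes (rows, in the order of the pathway) in WTCR against WTAL, Dgat1-/-AL against WTAL and WTCR against Dgat1-/-AL, with bars for the 95% interval of the limma model. Filled points passed the call rule: 4, 2 and 4 genes, with *Lpin1* at 2.28 in WTCR and -0.05 in Dgat1-/-AL.

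By overlap of the single arrays, 5 of the 10 genes separated WTCR from WTAL without overlap (the 4 called genes above and *Gpam*, lower), where 19.6% of all probe sets did so. In Dgat1-/-AL against WTAL 2 genes did, *Agpat2* above and *Gpam* below, beside 7.02% of all probe sets, and *Dgat1* was not among them since the array labelled WTAL replicate 2 lay among the Dgat1-/-AL arrays. In WTCR against Dgat1-/-AL 3 genes did, *Lpin1*, *Lpin2* and the deleted gene *Dgat1*, beside 16.1%. An exact permutation test of 3 against 3 arrays cannot give a two-sided p under 0.1, so the limma model, which shares the spread over probe sets, was used for the tests. Apart from *Dgat1*, leaving out the array labelled WTAL replicate 2 kept the calls of *Lpin1* (2.18), *Lpin2* (0.87) and *Agpat3* (0.72) in WTCR and of *Agpat2* (0.48) in Dgat1-/-AL.

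Other genes of glycerolipid synthesis were read from a list of 36, of which 30 had a probe set of their own (33 probe sets). It covers the supply of glycerol 3-phosphate, acyl-CoA synthetases, other GPATs and AGPATs, lipid phosphate phosphatases, relatives of the DGATs, the phosphatase that activates lipins, seipin, diacylglycerol kinases and CDP-diacylglycerol synthases. In WTCR against WTAL 2 of the 33 were higher and 0 lower, a share of 6.06% against 8.06% of all probe sets, and both encode enzymes that make glycerol 3-phosphate. *Gpd1* had log2 signals of 10.83, 10.83 and 11.39 in WTCR livers, 10.68, 10.37 and 10.52 in Dgat1-/-AL livers, and 10.30, 10.51 and 10.39 in WTAL livers. For *Gpd1l* they were 8.39, 8.31 and 8.45 in WTCR livers, 7.58, 7.67 and 7.86 in Dgat1-/-AL livers, and 7.73, 7.88 and 7.40 in WTAL livers. Both genes thus separated WTCR from all ad libitum arrays, by 0.62 ± 0.16 (*Gpd1*, limma adjusted p = 0.078) and 0.71 ± 0.13 (*Gpd1l*, limma adjusted p = 0.024) against WTAL, and by 0.50 (*Gpd1*, limma adjusted p = 0.15) and 0.68 (*Gpd1l*, limma adjusted p = 0.028) against Dgat1-/-AL. Without WTCR replicate 3 the *Gpd1* value against Dgat1-/-AL was 0.31 and the call ended.

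Just under the fold of the rule in WTCR against WTAL was *Plpp1*, a lipid phosphate phosphatase, at 0.36 ± 0.08 (limma adjusted p = 0.043). So were *Awat1*, a relative of the DGATs, at 0.36 ± 0.13 (limma adjusted p = 0.20) and, downward, *Cnep1r1* of the lipin phosphatase at -0.34 ± 0.12 (limma adjusted p = 0.21). Each of these genes passed the rule in some fits with 1 array left out. The *Awat1* means of 4.98 in WTCR and 4.62 in WTAL were below 5.29, the 95th percentile of the olfactory receptor probe sets. Its low signal thus has limited meaning. None of the 33 was called in Dgat1-/-AL against WTAL (limma), beside 1.23% of all probe sets (4.57% by an unadjusted p under 0.05 alone). The nearest was *Lclat1*, a lysocardiolipin acyltransferase gene of the AGPAT family, at 0.36 ± 0.15, which passed without WTAL replicate 3 (0.44) or Dgat1-/-AL replicate 3 (0.46). The median log2 fold change of the list was 0.11 in WTCR and 0.03 in Dgat1-/-AL against WTAL. In the direct comparison 2 of the 33 were called, a share of 6.06% beside 8.59% of all probe sets. The count moved to 8 probe sets without Dgat1-/-AL replicate 1, the added ones being *Bscl2*, 3 probe sets of *Ctdnep1*, *Dgkq* and *Plpp2*. Calls over all probe sets in that comparison moved too, from 2475 to between 2133 and 2982 with 1 array left out. Of the *Ctdnep1* probe sets, 2 hold the same value in every array and so count as 1 measurement.

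**Figure D4:**
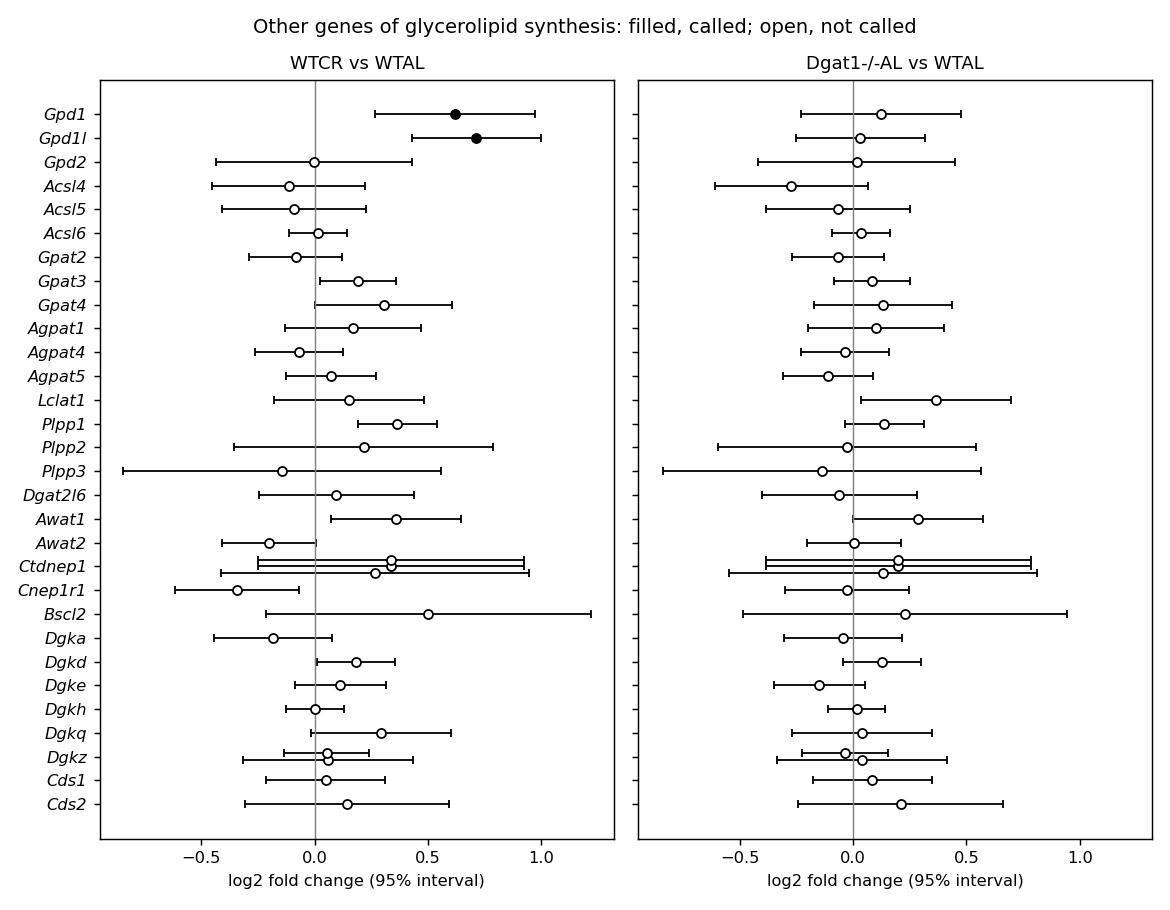
Log2 fold change (x axis) of the 33 probe sets of 30 other glycerolipid genes (rows) in WTCR and in Dgat1-/-AL against WTAL, with bars for the 95% interval of the limma model. Only *Gpd1* (0.62) and *Gpd1l* (0.71) in WTCR passed the call rule and are filled.

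The genes whose signal ran most like that of *Lpin1* over the 9 arrays were sought among 2335 probe sets with an SD of at least 0.3. They were *Setdb2*, a histone methyltransferase gene (Pearson r = 0.99), *Cirbp*, which encodes a cold-inducible RNA-binding protein (0.99), the clock gene *Per1* (0.99), the ubiquitin ligase gene *Smurf1* (0.98) and the deubiquitinase gene *Usp2* (0.98). The values describe 9 arrays that fall into WTCR and the rest, and all 5 genes share with *Lpin1* the step between those sets. *Per1*, for example, had 8.17, 8.13 and 7.73 in WTCR livers, 5.90, 5.67 and 5.83 in Dgat1-/-AL livers, and 5.61, 5.90 and 6.08 in WTAL livers. The closest to *Dgat1* were *Tbca*, a tubulin folding cofactor gene (0.90), *Tk1*, the gene of cytosolic thymidine kinase (0.88), *Btf3l4* (0.88), *Acy1*, which encodes an aminoacylase (0.88), and *Cep85l* (0.87). These 5 were chosen for a profile that includes the low value of the array labelled WTAL replicate 2, so a low value there is part of the choice. *Tbca*, for example, had 9.93, 10.14 and 10.09 in WTCR livers, 9.27, 9.47 and 9.48 in Dgat1-/-AL livers, and 9.89, 9.51 and 9.73 in WTAL livers.

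**Figure D5:**
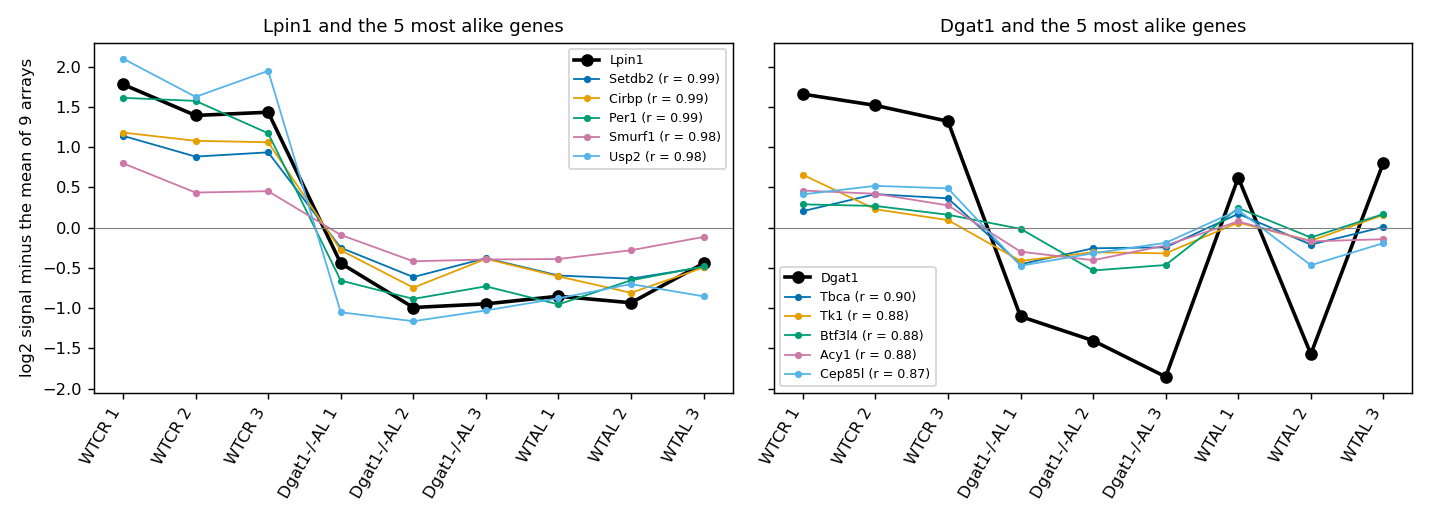
Log2 signal minus the mean of the 9 arrays (y axis) in each array (x axis, joined by lines only to guide the eye) for *Lpin1* and *Dgat1* (black) and the 5 genes most like each, with Pearson r over the 9 arrays in the legend. The genes beside *Lpin1* share its step between WTCR and the other arrays, and those beside *Dgat1* span a smaller range than *Dgat1* itself.

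Across the arrays, the first principal component (35.5% of the variance) set WTCR (26.0 to 30.4) apart from the others (-20.6 to -10.2), and the second (26.4%) set Dgat1-/-AL replicate 1 (-42.1) apart (others -15.9 to 15.3). Within their groups, Dgat1-/-AL replicate 1 and WTCR replicate 1 were each the highest array for 6 of the 10 genes. The liver label was borne out by 5 hepatocyte markers such as *Alb*, with a mean log2 signal of 13.6 to 13.7 in WTCR, 13.5 to 13.7 in Dgat1-/-AL and 13.6 in all WTAL arrays, and none was called against WTAL. Of 4 adipocyte markers, *Adipoq* (3.28 to 3.71), *Lep* and *Plin1* were low in all arrays, and *Car3*, which hepatocytes also express, was below WTAL in WTCR livers (-1.47 ± 0.42); the list mean was 5.87 to 6.39 in WTCR, 6.52 to 6.62 in Dgat1-/-AL and 6.51 to 6.69 in WTAL. Of 5 Kupffer cell markers 2 were lower than in WTAL in WTCR livers (*Adgre1* -1.13 and *Clec4f* -0.76, beside 3.81% of all probe sets called lower) and in Dgat1-/-AL livers (-0.85 and -0.50, beside 0.76%), while *Cd5l* (-0.34 in WTCR, -0.49 in Dgat1-/-AL), *Marco* (-0.03 in WTCR, -0.75 in Dgat1-/-AL) and *Vsig4* (-0.07 in WTCR, 0.003 in Dgat1-/-AL) were not called, with list means of 8.16 to 9.01 in WTCR, 8.31 to 8.63 in Dgat1-/-AL and 8.58 to 9.24 in WTAL. Of 4 stellate cell markers *Lrat* (-0.63) and *Reln* (-0.50) were lower in WTCR than in WTAL livers, *Dcn* (0.21) and *Des* (0.008) were not called there, and none was called in Dgat1-/-AL against WTAL, with list means of 8.12 to 8.24 in WTCR, 8.43 to 8.59 in Dgat1-/-AL and 8.34 to 8.48 in WTAL. Of 4 endothelial markers none was called in WTCR against WTAL. In Dgat1-/-AL against WTAL *Stab2* was higher (0.65, beside 0.465% of all probe sets called higher) and *Lyve1* was lower (-0.64, beside 0.76%). Both had a limma adjusted p of 0.97. *Kdr* (0.54) and *Pecam1* (0.11) were not called there, and the list means were 7.06 to 7.49 in WTCR, 7.31 to 7.71 in Dgat1-/-AL and 7.26 to 7.53 in WTAL. In the direct comparison *Stab2* (-1.06) and *Kdr* (-0.81) were lower and *Lyve1* (0.75) was higher in WTCR than in Dgat1-/-AL, and *Pecam1* (-0.22) was not called. Of the stellate cell list *Lrat* (-0.65) and *Reln* (-0.74) were lower there, *Dcn* (0.40) was higher and *Des* (-0.195) was not called. The hepatocyte marker *Tat* (0.44) was higher there, alone of its list, and *Car3* (-1.50) was lower. These calls stand beside 4.66% of all probe sets called higher and 3.93% lower. Of 3 enterocyte markers WTCR livers had lower *Fabp2* than WTAL livers (-1.23), *Lct* (0.02) and *Vil1* (0.06) were not called, and the list means were 6.10 to 6.24 in WTCR, 6.03 to 6.47 in Dgat1-/-AL and 6.32 to 6.82 in WTAL. Whether the changes of these marker genes had a part in the signals of the triglyceride synthesis genes was not tested.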

How the data were processed

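Liver total RNA of 9 mice was hybridised to Affymetrix Mouse Gene 1.0 ST arrays. The deposited values are log2 signals from RMA as run by the authors (background correction, quantile normalization and probe summary), and they were used unchanged, with all 28815 probe sets and no filter. The version of RMA is not given in the sources used here, and the number of arrays limits the precision. For each probe set limma 3.58.1 in R 4.3.3 fitted 1 mean per group over the 9 arrays, with empirical Bayes variances. A call needed more than a 1.3-fold change with p under 0.05 before adjustment, as in the study, and Benjamini-Hochberg adjustment ran over all probe sets. The code was tested on simulated data. The genes named are the 10 chosen, the called genes of the glycerolipid list, called neighbours of *Dgat1* and the 5 genes most like *Lpin1* and *Dgat1*, and the values of uncalled list members were added after they were seen. The 10 genes and the lists were chosen with earlier results of these data known. Probe sets were named through the platform annotation, with symbols updated through RefSeq (GRCm38.p6), and 1605 with several symbols and 5430 with none were not named. *Gk*, *Acsl1*, *Acsl3*, *Soat1*, *Soat2* and *Dgkg* of the list were not analysed here. Alternatives were fits of only the groups compared, each array left out, a replicate block, array weights, trended robust variances, median centring, a minimum mean log2 signal of 6 and the adjusted p. Each array holds a separate mouse, and the labels do not say that a replicate number marks a shared litter or day. Deviations of same-numbered arrays from their group means correlated at 0.48, 0.25 and 0.21 between WTCR and Dgat1-/-AL, as they could if those 2 groups were paired. The values were -0.23, 0.05 and -0.07 between WTCR and WTAL, and -0.32, -0.09 and -0.23 between Dgat1-/-AL and WTAL. Arrays of different numbers reached up to 0.31 (WTAL replicate 3 with Dgat1-/-AL replicate 1), so these values do not settle whether arrays were paired.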

Additional observations from a re-analysis of the deposited data

How the results depend on the processing

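The calls that kept their side of the threshold under every alternative run, apart from the adjusted p, were *Lpin1* and *Lpin2* in WTCR against WTAL and against Dgat1-/-AL, *Agpat3* in WTCR against WTAL and *Dgat1* in WTCR against Dgat1-/-AL. With an adjusted p under 0.05 added, the 10 genes gave 2 calls in WTCR against WTAL, 0 in Dgat1-/-AL against WTAL and 2 directly, the glycerolipid list 1, 0 and 1, and all probe sets 817, 0 and 824, in place of 2322, 353 and 2475, and *Dgat1* lost its calls against WTAL (1.55 in WTCR, -1.41 in Dgat1-/-AL). In Dgat1-/-AL against WTAL the 10 genes gave 1 call with only those groups fitted, where *Dgat1* (-1.41) was lost, and 1 with array weights, where *Agpat2* was lost.

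With 1 array left out, the 10 genes gave 3 to 5 calls in WTCR against WTAL, 0 to 2 in Dgat1-/-AL against WTAL (0 without WTAL replicate 1, and 1 without WTAL replicate 3 or Dgat1-/-AL replicate 1 or 2) and 3 to 4 directly. The glycerolipid list gave 2 to 4, 0 to 1 and 1 to 8, and all probe sets 2071 to 2527, 331 to 663 (663 without Dgat1-/-AL replicate 2, 551 without replicate 1) and 2133 to 2982. *Dgat1* ranged from 0.79 to 1.97 in WTCR and from -2.17 to -0.98 in Dgat1-/-AL against WTAL.

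Signs changed only where no call was made. With array weights *Dgat2* became -0.0016 in WTCR and -0.081 in Dgat1-/-AL against WTAL, and *Mogat1* -0.082 in WTCR against Dgat1-/-AL. With 1 array left out, *Dgat2* ranged from -0.094 to 0.14 in WTCR and from -0.14 to 0.12 in Dgat1-/-AL against WTAL, and from -0.12 to 0.20 directly. *Mogat1* ranged from -0.17 to 0.029, from -0.39 to 0.023 and from -0.087 to 0.33 in the same comparisons. In Dgat1-/-AL against WTAL, *Lpin1* ranged from -0.23 to 0.10, *Lpin3* from -0.10 to 0.0013, *Agpat3* from -0.019 to 0.30 and *Mogat2* from -0.055 to 0.11. In WTCR against Dgat1-/-AL, *Gpam* ranged from -0.25 to 0.087 and *Mogat2* from -0.00033 to 0.16. The causes were not tested. Each of the 10 genes has 1 probe set, so averaging over the probe sets of a gene does not apply to them and was not run.

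As for pairing, a fit with the replicate number as a block gave 2323, 359 and 2480 calls over all probe sets and changed no call of the 10 genes (4, 2 and 4). The adjusted p of *Dgat1* in WTCR against Dgat1-/-AL became 0.051 under the block.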

Other observations

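The deposited log2 signals, which have 3 decimals, repeat between mice. In 10660 of the 28815 probe sets (37.0%) at least 3 of the 9 arrays hold the same value. Among the triglyceride synthesis genes, *Lpin3* is at 6.10 in 4 arrays, *Mogat2* at 5.94 in 3 and *Gpam* at 10.23 in 3, of which 2 are WTCR and 1 is Dgat1-/-AL. The called genes *Agpat2*, *Agpat3*, *Lpin2* and *Dgat1* hold no repeated value, and *Lpin1* holds 8.003 in 1 Dgat1-/-AL and 1 WTAL array. No explanation was tested.

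Of 3 skeletal muscle markers, 2 were higher in Dgat1-/-AL replicate 3 than in the other 8 arrays, with *Ckm* at 6.97 (others 6.09 to 6.27) and *Acta1* at 6.94 (others 6.12 to 6.48). *Myh4* was not, at 4.497 (others 4.29 to 4.53). These values were noticed after the data were seen. Without that array, *Dgat1* (-1.21) was no longer called in Dgat1-/-AL against WTAL, and *Mogat1* (-0.39) was.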
